A study of Mus musculus with 8 samples.

Results

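Cytochrome P450 families 1 to 3 were taken as every protein-coding gene of the deposited count table whose mouse symbol was Cyp1, Cyp2 or Cyp3 followed by 1 subfamily letter and a number alone. The rule found 58 genes of the 49585 in the table, 3 in family 1, 48 in family 2 and 7 in family 3, spread over 16 subfamilies and 8 chromosomes. The largest blocks were 15 genes on chromosome 7, 15 on chromosome 19, and 8 each on chromosomes 4, 5 and 15. Cyp3a41a, Cyp3a41b and Cyp2ab1 were outside the rule because of the form of their symbols, as were 23 pseudogenes.

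Bulk RNA-seq had been run on 8 livers of male mice kept for 3 months, from 21 days of age, on a high-fat diet lacking added choline (HFCD), a diet that makes the liver fatty. By the labels, all 8 mice carried 1 altered Trp53 allele besides a wild-type one. LP245/+ (n = 3) was Alb-CreTG, Trp53wm-R245W/+, in which Cre driven by the albumin promoter switches 1 allele to the R245W mutant in hepatocytes and bile duct cells. LPfl/+ (n = 2) was Alb-CreTG, Trp53fl/+, in which the same Cre deletes 1 allele. LP+/+ (n = 3) was Alb-Cre0 by the labels, with Trp53fl/+ in replicates 1 and 2 and Trp53wm-R245W/+ in replicate 3. The study's text instead describes LP+/+ as Alb-Cre carriers with wild-type Trp53, and its methods name Cre-negative as well as Alb-Cre littermates, so the genotype of these controls differs between the sources. The labels were followed here. The library numbers in the labels form 2 separate runs. The lower run held LP245/+ 1, 2 and 3 and LP+/+ 2 and 3 (called series 1 here), and the higher run held LP+/+ 1 and LPfl/+ 1 and 2 (series 2). No series held both LPfl/+ and LP245/+ livers.

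P450 enzymes of families 1 to 3 are haem proteins of the endoplasmic reticulum that oxidize drugs, toxicants, steroids, bile acids and fatty acids. They draw electrons from P450 oxidoreductase, and their genes respond to ligand-activated receptors: AHR for family 1, CAR and PXR for many genes of Cyp2b, Cyp2c and Cyp3a. In the mouse liver many of them sit in tandem clusters, are restricted to pericentral hepatocytes, and differ between males and females under the pattern of growth hormone release.

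Trp53, the gene altered in these mice, stood at 229 ± 28.1 normalized counts (counts divided by a DESeq2 size factor, SD) in LP+/+, 152 ± 36.1 in LPfl/+ and 268 ± 65.4 in LP245/+. Cdkn1a, a p53 target, stood at 170 ± 27.6, 87.5 ± 17.7 and 22.4 ± 6.97. Total counts ran from 26304526 to 31370714 per liver, and the 58 members took 1.22% (LP+/+ 1) to 1.87% (LP+/+ 3) of them. Genes of the Y chromosome (Ddx3y, Kdm5d, Eif2s3y and Uty) were at 772 or more normalized counts in every liver and Xist at 25.2 or less. The hepatocyte markers (7 of 7 detected) summed to 2776100 to 4047600 normalized counts per liver. Pancreatic Prss1 and Ctrb1 and the gut factors Cdx1 and Cdx2 were at 0 in all 8 livers. Of the same lists, Cpa1, Pnlip and Lct were at 1.02 normalized counts or less and Vil1 at 5.05 to 11.6. Cela1 (583 to 1039) and Fabp2 (2221 to 5092) were present in every liver. In bulk tissue, fewer cells of a type and less RNA per cell cannot be told apart.

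Of the 58 members, 46 had a mean of at least 3 counts per liver, and 43 had enough counts in enough livers to be tested. Cyp2t4, Cyp2c69 and Cyp3a44 were detected but not tested. Of the other 12 members, 9 stayed under 3 counts on average: Cyp2b23, Cyp2c65, Cyp2d34, Cyp2j11, Cyp2j12, Cyp2j13, Cyp2w1, Cyp3a16 and Cyp3a57. Cyp2b19, Cyp2c66 and Cyp2j7 had 0 counts in all 8 livers, which allows each a share of up to 1.14e-05% of the counts of the shallowest liver, for counting error alone. The silent members were not whole subfamilies, apart from Cyp2w, which has 1 gene. Cyp2j held 4 tested and 4 silent genes, and Cyp2b 3 tested and 2 silent ones.

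Levels between genes are given as RPKM, the counts divided by the exon length and by the total count of the library. Cyp2e1, the ethanol-oxidizing P450, had the highest mean, 2634 ± 463 RPKM (SD over 8 livers), with a range of 1970 to 3227. It alone took 32.9% to 39.0% of all counts on the members. The next gene, Cyp2d26, was at 514 RPKM (388 to 629), and its highest liver lay below the lowest Cyp2e1 liver.

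Below Cyp2d26 the order of neighbours was not resolved. Cyp2j5, an arachidonic acid epoxygenase, was at 385 ± 34.6 RPKM, Cyp2d10 at 366 ± 25.5, and Cyp2d9, a testosterone hydroxylase known as higher in male liver, at 330 ± 64.6. The 5 genes after them lay within 200 to 268 RPKM. They were Cyp2c29 (an epoxygenase, 268 ± 83.7), Cyp2f2 (a naphthalene-oxidizing enzyme of periportal cells, 227 ± 29.3), Cyp2a12 (211 ± 27.9), Cyp3a25 (201 ± 34.2) and Cyp3a11 (the main PXR-responsive drug-metabolizing gene, 200 ± 94.2). Summed over a subfamily, mean levels were 2634 RPKM for Cyp2e, 1307 for Cyp2d, 1180 for Cyp2c, 452 for Cyp3a, 421 for Cyp2j, 339 for Cyp2a, 227 for Cyp2f and 127 for Cyp1a. From Cyp2j5 to Cyp3a11 the SDs of adjacent genes overlapped, and 8 of the 10 highest genes stayed among the 10 when length was taken from the longest transcript, with Cyp2c50 and Cyp2c70 in place of Cyp2a12 and Cyp3a25.

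**Figure D1:**
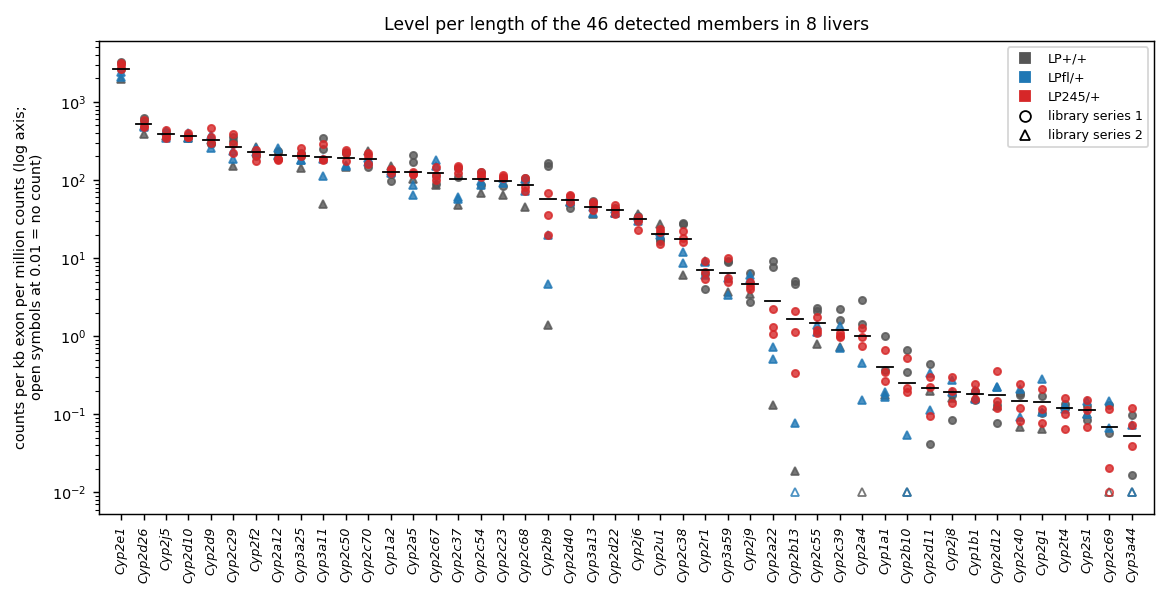
Level per length in RPKM (log axis) of the 46 detected members in 8 livers, ordered by mean level (black bar). Colour gives the genotype, circles series 1 and triangles series 2, and open symbols mark livers with no count. Cyp2e1 stands above all others, and Cyp2b9 and Cyp2a22 spread 124-fold and 72.2-fold between livers.

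Family 1 was carried by Cyp1a2, which oxidizes caffeine and arylamines, at 127 ± 16.1 RPKM. Its normalized counts were 8338, 5620 and 7044 in LP+/+ 1 to 3, 7040 and 6958 in the LPfl/+ livers, and 7388, 7939 and 7434 in LP245/+. The genotypes differed little in this gene, and its coefficient of variation (CV) over the 8 livers was 11.1%. Cyp1a1, the gene most used as a readout of AHR, was at 0.396 RPKM and ranged from 12.1 to 81.9 normalized counts. Cyp1b1 was at 0.183 RPKM, with 25.3 to 42.8 normalized counts.

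Members varied more between livers than genes at large. Their median CV over 8 livers was 27.8% (n = 43), against 16.2% for all 16496 tested genes. For genes with a mean of at least 1000 counts these medians were 19.7% (26 members) and 9.85% (3697 genes). The spread was also seen within a genotype: in LP+/+ the median CV was 33.8% for members and 13.0% for all genes, in LPfl/+ 18.7% and 10.1%, and in LP245/+ 21.9% and 14.6%. The steadiest tested member was Cyp2d10 (CV 8.95%), and the 5 most variable with a mean of at least 10 counts were Cyp2b13 (127%), Cyp2a22 (124%), Cyp2b9 (113%), Cyp2b10 (99.8%) and Cyp2a4 (94.7%). All 5 are Cyp2a or Cyp2b genes of 1 cluster on chromosome 7.

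The cluster holds Cyp2b10, Cyp2b13, Cyp2b9, Cyp2a4, Cyp2b23, Cyp2b19, Cyp2g1, Cyp2a5, Cyp2a22 and Cyp2a12 in this order. The 150 bases upstream of the RefSeq start (GRCm38.p6) are shown for the 7 detected Cyp2a and Cyp2b genes. Near-identical upstream stretches went with unlike levels, and in the Cyp2a pairs also with unlike spread. They lie as Cyp2b10 at chr7:25897508-25897657 (plus strand), Cyp2b13 at chr7:26061345-26061494 (plus strand), Cyp2b9 at chr7:26173259-26173408 (plus strand), Cyp2a4 at chr7:26307042-26307191 (plus strand), Cyp2a5 at chr7:26835189-26835338 (plus strand), Cyp2a22 at chr7:26939387-26939536 (minus strand) and Cyp2a12 at chr7:27028940-27029089 (plus strand). Capitals mark the D box TTATGNAA (the element read by clock-controlled PAR bZIP factors, found here as its reverse complement), the TATA motif TATAAA on the gene's strand, and AGGTCA, the element of nuclear receptors. The D box and AGGTCA were searched on both strands.
Cyp2b10: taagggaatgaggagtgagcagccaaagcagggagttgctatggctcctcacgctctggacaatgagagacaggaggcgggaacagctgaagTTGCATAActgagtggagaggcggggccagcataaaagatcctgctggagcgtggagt
Cyp2b13: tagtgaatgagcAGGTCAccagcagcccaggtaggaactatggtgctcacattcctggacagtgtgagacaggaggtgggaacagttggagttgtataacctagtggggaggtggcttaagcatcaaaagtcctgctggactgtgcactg
Cyp2b9: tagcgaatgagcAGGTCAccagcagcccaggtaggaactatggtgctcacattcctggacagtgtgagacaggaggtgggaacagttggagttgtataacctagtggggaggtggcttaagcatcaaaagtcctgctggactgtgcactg
Cyp2a4: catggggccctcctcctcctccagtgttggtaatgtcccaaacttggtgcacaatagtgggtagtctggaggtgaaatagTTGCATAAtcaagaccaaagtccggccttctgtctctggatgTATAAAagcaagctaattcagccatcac
Cyp2a5: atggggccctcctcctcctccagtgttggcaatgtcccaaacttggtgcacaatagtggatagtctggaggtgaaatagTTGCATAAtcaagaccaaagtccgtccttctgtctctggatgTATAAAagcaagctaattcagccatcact
Cyp2a22: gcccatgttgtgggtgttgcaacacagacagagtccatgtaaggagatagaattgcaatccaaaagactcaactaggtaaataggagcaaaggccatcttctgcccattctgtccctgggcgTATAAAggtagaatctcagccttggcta
Cyp2a12: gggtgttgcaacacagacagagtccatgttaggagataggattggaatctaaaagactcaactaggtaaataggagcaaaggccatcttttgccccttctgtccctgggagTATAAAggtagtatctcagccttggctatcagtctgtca

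Cyp2b13 and Cyp2b9 were identical at 99.3% of 150 bases, Cyp2a4 and Cyp2a5 at 98.0% of 149, and Cyp2a22 and Cyp2a12 at 94.2% of 139 after a shift of 11 bases. The D box was found upstream of Cyp2b10, Cyp2a4, Cyp2a5 and the silent Cyp2b19 and Cyp2b23. Within 250 bases of the start it occurred in 5 of 53 member promoters (9.43%, 50 members matched) and in 3.07% of 32851 promoters. For TATAAA these shares were 32.1% and 7.59%, for AGGTCA 30.2% and 14.0%, and for the HNF4 motif CAAAGTCCA 15.1% and 0.384%. Other motifs searched were less frequent in member promoters than in all promoters. The XRE, the element read by AHR, occurred in 17.0% and 28.2%, and the STAT motif in 3.77% and 7.02%. The C/EBP and HNF1 motifs were in 0.0% of member promoters and in 0.164% and 0.00913% of all promoters. These counts describe letters in a window and show no binding.

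Cyp2a22 (ENSMUSG00000091867, chr7:26931631-26939384, minus strand, GRCm38) lies between Cyp2a5 and Cyp2a12 and had a mean level of 2.84 RPKM. Its normalized counts were 12.6, 907 and 786 in LP+/+ 1, 2 and 3, 49.6 and 65.6 in the LPfl/+ livers, and 121, 219 and 113 in LP245/+. LP+/+ held both the highest livers and the lowest one, with a mean in replicates 2 and 3 that was 67.4 times replicate 1. Replicates 1 and 2 carry the same genotype label. Of the 76-base stretches of the Cyp2a22 transcripts, 8.86% also occur in another gene, mostly Cyp2a12.

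The neighbours differed sharply. Cyp2a12, which hydroxylates bile acids, stood at 19558, 23218 and 24106 normalized counts in LP+/+, 24896 and 18979 in the LPfl/+ livers, and 17638, 17635 and 19298 in LP245/+. Its CV was 14.2%, against 124% for Cyp2a22. Cyp2a5, the mouse coumarin hydroxylase, stood at 5801, 12634 and 10484 in LP+/+, 5080 and 3503 in the LPfl/+ livers, and 6796, 7460 and 7600 in LP245/+. LP+/+ 2 and 3 were the highest livers again, but by less.

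Cyp2b9, a gene known as higher in female liver, had the widest range of counts among the well-expressed members. It stood at 71.5, 8898 and 8331 normalized counts in LP+/+ 1 to 3, 1050 and 229 in the LPfl/+ livers, and 1814, 3645 and 1134 in LP245/+. Highest and lowest liver differed 124-fold, and both were LP+/+. Cyp2b13, which shares its upstream stretch, had raw counts of 1, 290 and 271 in LP+/+, 4 and 0 in the LPfl/+ livers, and 56, 110 and 19 in LP245/+. Its level followed the order of Cyp2b9 within each genotype, at a mean of 1.67 RPKM against 57.8 for Cyp2b9.

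Cyp2b10, the classical CAR target, was near silent, at 0, 22 and 44 raw counts in LP+/+, 0 and 3 in the LPfl/+ livers, and 12, 31 and 12 in LP245/+. Cyp2a4, a steroid hydroxylase known as higher in females, had 0, 154 and 77 raw counts in LP+/+, 22 and 7 in the LPfl/+ livers, and 34, 62 and 50 in LP245/+. In both genes every series 1 liver lay above every series 2 liver. Cyp2a4 shares 21.5% of its 76-base stretches, mostly with Cyp2a5, whose level per length was 125 RPKM against 0.989, so that its counts are uncertain. Cyp2f2 and Cyp2t4, further along the chromosome, and Cyp2s1 at the other side did not show the pattern, with CVs of 10.6%, 22.6% and 25.0%.

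**Figure D2:**
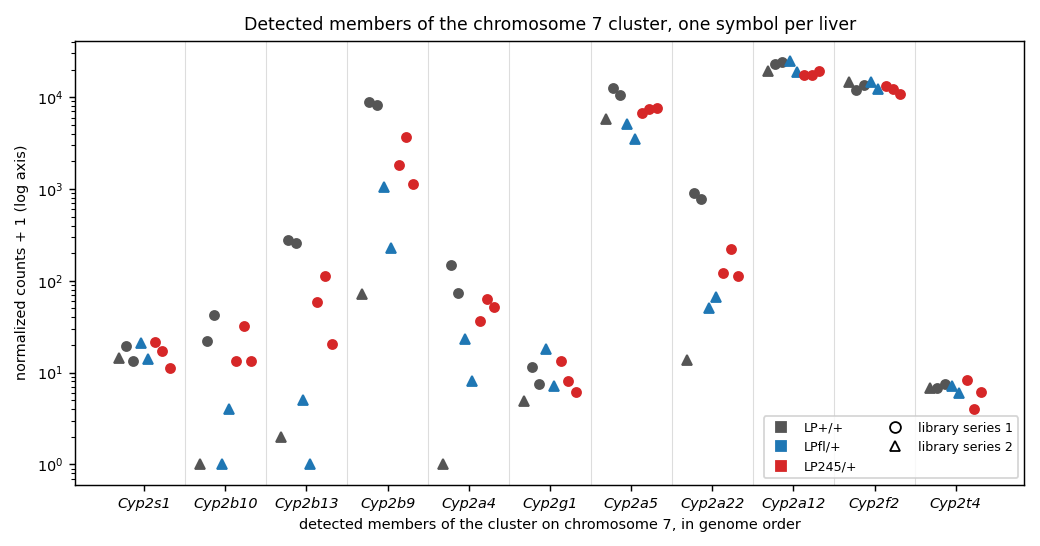
Normalized counts plus 1 (log axis) of the detected members of the chromosome 7 cluster in genome order, 1 symbol per liver, coloured by genotype (circles series 1, triangles series 2). LP+/+ 2 and 3 are the highest livers for Cyp2b13, Cyp2b9, Cyp2a4, Cyp2a5 and Cyp2a22 and LP+/+ 1 the lowest for Cyp2b9, Cyp2a4 and Cyp2a22, while Cyp2a12 and Cyp2f2 stay within a factor of 1.41.

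This order of livers recurred outside the cluster. LP+/+ 2 and 3 were the 2 highest livers for 9 of the 43 tested members (20.9%), against 5.53% of all tested genes, and LP+/+ 1 alone was the lowest liver for 18 (41.9%, against 12.5%). Besides the cluster the 9 included Cyp2c38, Cyp2c39, Cyp2c55 and Cyp2d26. The mean of LP+/+ 2 and 3 was at least 2 times LP+/+ 1 for 16 members (37.2%, all genes 3.75%) and at most 0.5 times for 0 (all genes 4.58%). Cyp3a11 was such a gene, at 6832, 36787 and 51423 normalized counts in LP+/+, 16169 and 25539 in the LPfl/+ livers, and 25785, 42444 and 27624 in LP245/+. Among the 16, Cyp2a4 and Cyp2b10 had 0 reads in LP+/+ 1, Cyp2b13 had 1, and Cyp2c40 and Cyp2g1 had 4 each. With so few reads, these genes are not taken as evidence of the order of livers.

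All series 1 livers were above all series 2 livers for 13 members (30.2%), against 4.49% of all genes. The opposite order was seen for 0 members and 5.09% of all genes. The 13 were Cyp1a1, Cyp2a4, Cyp2a5, Cyp2a22, Cyp2b9, Cyp2b10, Cyp2b13, Cyp2c37, Cyp2c38, Cyp2c50, Cyp2e1, Cyp3a11 and Cyp3a25. Of these, Cyp2a4, Cyp2b10 and Cyp2b13 held 22 reads or fewer in every series 2 liver and passed the filter through series 1 livers. They are not taken as evidence of the split. The first principal component of all genes (31.1% of the variance) also separated the series. LPfl/+ livers were all in series 2 and LP245/+ livers all in series 1, so the series and the difference between these genotypes cannot be told apart.

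The comparison of LP245/+ with LP+/+ sets livers with the R245W allele switched on against controls. By the labels it also sets Cre carriers against Cre-negative mice, and these differences cannot be told apart. No member passed the test (edgeR quasi-likelihood, Benjamini-Hochberg adjusted p of 0.05 or less and a fold change of 2 or more), and the smallest adjusted p among the 43 was 0.831. Across all 16496 genes 1 was called (0.00606%), Cdkn1a, and DESeq2 called 10 genes and 0 members. At an unadjusted p under 0.05 there were 0 members in either direction, with 3.55% of all genes higher and 2.38% lower. The median log2 fold change of the members was 0.06, with 26 above 0 and 17 below, and that of all genes 0.003.

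Only Cyp2a12 separated these genotypes without overlap, lower in LP245/+ (all genes: 6.03% higher and 5.79% lower without overlap). Its log2 fold change was -0.28 ± 0.14 (SE), with an edgeR adjusted p of 0.831. The lowest fitted changes were those of Cyp2a22 (-1.90 ± 0.91), Cyp2b13 (-1.49 ± 1.03) and Cyp2b9 (-1.38 ± 1.13). Cyp2a22 was called without LP+/+ replicate 1 (-2.47 ± 0.25, edgeR adjusted p = 0.0106) and among series 1 livers alone (-2.48 ± 0.24, edgeR adjusted p = 0.00909, 3 against 2 livers). There its values were 113 to 219 in LP245/+ and 786 to 907 in LP+/+, 5.59-fold lower by the fit, and no other member was called. Among series 1 livers Cyp2b9 had a log2 fold change of -1.97 ± 0.37 with an edgeR adjusted p of 0.235, and Cyp2b13 one of -2.08 ± 0.46 with 0.326.

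LPfl/+ against LP+/+ compares loss of 1 allele with controls and, by the labels, Cre carriers with Cre-negative mice. The allele and Cre cannot be told apart here. No member was called, 0.0% of all genes were, and the smallest adjusted p of a member was 0.697 (edgeR). DESeq2 called 8 genes, of which 1 was a member, Cyp2a5. At an unadjusted p under 0.05, 1 member was higher (Cyp2c67) and 6 were lower (Cyp1a1, Cyp2a5, Cyp2a22, Cyp2b10, Cyp2b13 and Cyp2c37), against 4.22% and 2.67% of all genes. Cyp2b10 (0 and 3 reads in the LPfl/+ livers) and Cyp2b13 (4 and 0) passed the filter only through the other genotypes. Neither is taken as evidence of a difference. The median log2 fold change was -0.12 for members, with 29 of 43 below 0, and -0.001 for all genes.

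Cyp2a5 was lower in both LPfl/+ livers than in all 3 LP+/+ livers, by 1.16 ± 0.29 on the log2 scale (2.23-fold, edgeR adjusted p = 0.697, DESeq2 adjusted p = 0.0121). Among series 2 livers, where LP+/+ is 1 liver assumed to vary like the others, its log2 fold change was -0.43 ± 0.25. Cyp2c67, Cyp2d12 and Cyp2j8 were higher without overlap, by log2 fold changes of 0.73 ± 0.22, 0.94 ± 0.48 and 0.66 ± 0.52, and Cyp2a5 alone was lower (all genes: 11.9% higher, 13.2% lower without overlap). Cyp2c67 stood at 4087, 4528 and 5752 normalized counts in LP+/+ and at 8855 and 6908 in the LPfl/+ livers, and 35.4% of its 76-base stretches occur in other genes. Cyp2d12 and Cyp2j8 rested on 24.3 normalized counts or fewer in each of these livers.

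For some genes of the cluster the direction in this comparison turned with the control liver used, though not for Cyp2a5. Cyp2a22 had a log2 fold change of -3.29 ± 1.17 over all livers and of 2.19 among series 2 livers alone, where LP+/+ 1 lay below both LPfl/+ livers. For Cyp2b9 these values were -3.16 ± 1.42 and 3.16. Without LP+/+ 1 the fit called 5 members, all lower in LPfl/+ (Cyp2a5, Cyp2a22, Cyp2b13, Cyp2c37 and Cyp2c38), and 59 genes in all. Fitted changes of Cyp2b10 and Cyp2b13 are not given or drawn for LPfl/+, because both livers together held 3 and 4 reads. The call of Cyp2b13 without LP+/+ 1 rests on these reads and is not taken as evidence of a difference.

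LP245/+ against LPfl/+ compares a mutant with a missing allele. No member was called and 0.0% of all genes were, with the smallest member adjusted p at 0.402 (Cyp2c37, edgeR). DESeq2 called 56 genes and 0 members. At an unadjusted p under 0.05, 5 members were higher in LP245/+ (Cyp2a5, Cyp2b10, Cyp2b13, Cyp2c37 and Cyp2c50) and 0 lower, against 4.07% and 4.44% of all genes. Cyp2b10 and Cyp2b13 again held few reads in LPfl/+ and are not taken as evidence of a difference. The median log2 fold change was 0.17 for members, with 31 of 43 above 0, and 0.004 for all genes.

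Without overlap, 15 of 43 members were higher in LP245/+ and 1, Cyp2j9, was lower, against 12.1% and 13.3% of all genes. Of the 15, 13 were the genes in which all series 1 livers, LP+/+ 2 and 3 included, lay above all series 2 livers. The other 2 were Cyp1a2 and Cyp2c54. Cyp2a4, Cyp2b10 and Cyp2b13, which held few reads in LPfl/+, were among the 13. Cyp2c37, a gene of pericentral cells, stood at 2956 and 2931 normalized counts in LPfl/+ and at 6082, 7877 and 7866 in LP245/+, a log2 fold change of 1.31 ± 0.38. Its LP+/+ values were 2421, 5831 and 7699, with the low value in the series 2 liver. Fitted on the livers of these 2 genotypes alone, Cyp2c37 was called (1.31 ± 0.16, edgeR adjusted p = 0.0104), and with the library series as a covariate its direction turned (-0.17 ± 0.26, edgeR adjusted p = 0.995). The covariate fit, in which LP+/+ 1 is the link between the series, called Cyp2a22 lower in LP245/+ (-4.67 ± 0.60, edgeR adjusted p = 0.0353), against a log2 fold change of 1.39 ± 1.14 without it. Cyp2j9 stood at 505 and 542 in LPfl/+ and at 395, 467 and 401 in LP245/+, with a log2 fold change of -0.31 ± 0.30.

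**Figure D3:**
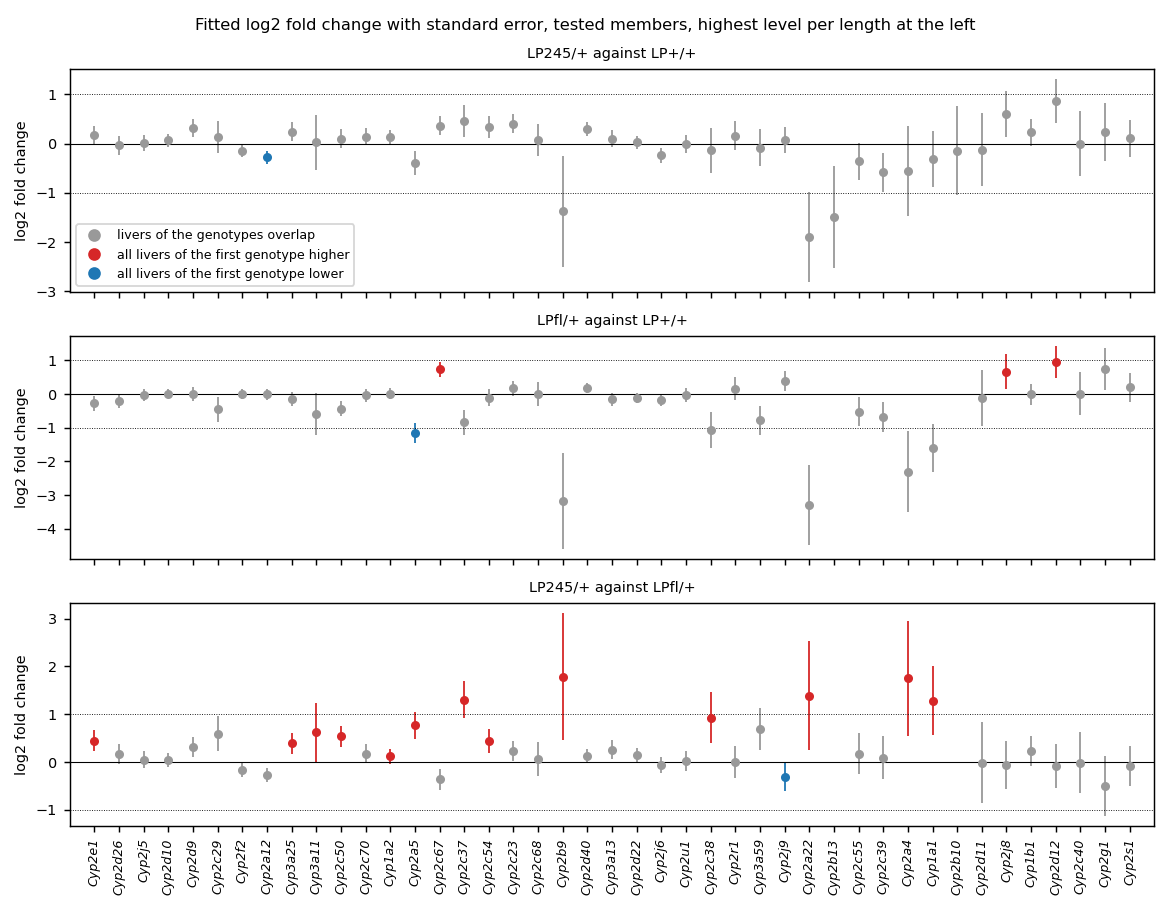
Fitted log2 fold change with its standard error for the tested members, ordered by level, with dotted lines at a fold change of 2. All 43 are drawn for LP245/+ against LP+/+, and all but Cyp2b10 and Cyp2b13 for the comparisons with LPfl/+. Coloured points are members whose genotypes did not overlap. No point passed the adjusted test.

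Of 8 members known from pericentral hepatocytes (Cyp2e1, Cyp1a2, Cyp2a5, Cyp2c29, Cyp2c37, Cyp2c50, Cyp2c54 and Cyp3a11), 0 passed the test in any comparison. Their median log2 fold change was 0.13 in LP245/+ against LP+/+, -0.44 in LPfl/+ against LP+/+ and 0.56 in LP245/+ against LPfl/+, and 7 of the 8 were higher in LP245/+ than LPfl/+ without overlap, with Cyp2c29 the exception. Cyp2e1 stood at 117032, 164682 and 205587 normalized counts in LP+/+, 127346 and 138442 in the LPfl/+ livers, and 153664, 192890 and 196573 in LP245/+. The series 2 livers were the 3 lowest. Of all genes, 12.1% were higher in LP245/+ than LPfl/+ without overlap, and the series and these genotypes cannot be told apart. In LPfl/+ against LP+/+, 13.2% of all genes were lower without overlap. Of 7 other pericentral genes listed, Glul, Oat and Slc1a2 were lower in LPfl/+ than in both other genotypes without overlap. Axin2, Lgr5, Rhbg and Gulo overlapped between LPfl/+ and each of the others, with the mean of Axin2 highest in LPfl/+, and none of the 7 passed the test. The periportal member Cyp2f2 ranged from 10903 to 14830 with all genotypes overlapping. Of 9 other periportal genes listed, Ass1 and Gls2 were lower in LPfl/+ than in both other genotypes without overlap. Cdh1 was lower in LP245/+ than in LPfl/+ without overlap. In LP245/+ against LPfl/+, 7 of the 9 had a log2 fold change above 0 and 2 below, with a median of 0.215. None of the 9 passed the test.

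**Figure D4:**
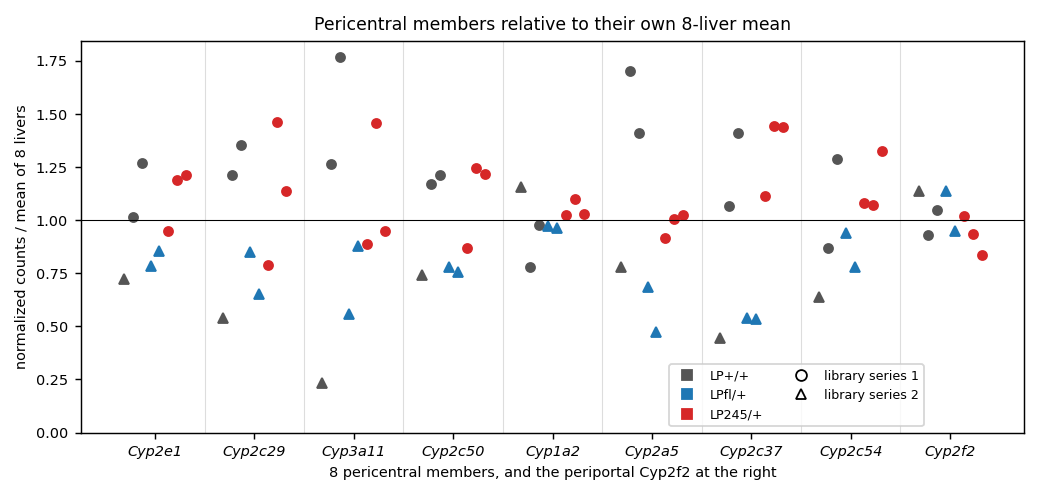
Normalized counts of the 8 pericentral members and of Cyp2f2, each divided by its mean over 8 livers (linear axis), coloured by genotype (circles series 1, triangles series 2). Series 2 livers lie below the mean for every pericentral member but Cyp1a2, and LP+/+ 1 is the lowest liver for Cyp2e1, Cyp2c29, Cyp3a11, Cyp2c50, Cyp2c37 and Cyp2c54.

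A list of 10 P450 genes known as higher in females held 8 members of the rule, with Cyp3a41a and Cyp3a41b. In these male livers Cyp3a16, Cyp3a41a and Cyp3a41b were below 3 counts in every liver. Cyp2c40, Cyp2c69 and Cyp3a44 stayed at 13.4 normalized counts or fewer, whereas Cyp2b9 reached 8898. Of the 5 that were tested, 0 passed the test in any comparison. The male-biased member Cyp2d9 was at 18961 to 34786 normalized counts, and its log2 fold changes were within 0.32 of 0.

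Of 7 male-biased genes listed outside the families, 6 were higher in LP+/+ 1 than in LP+/+ 2 and 3, the opposite order to Cyp2b9. The exception was Mup20, a urinary protein gene, at 60860, 33080 and 63000 normalized counts. Hsd3b5, a steroid dehydrogenase, stood at 9875, 1303 and 2830 normalized counts in LP+/+ 1 to 3. Cyp7b1, an oxysterol hydroxylase, stood at 10070, 2723 and 3518, Elovl3, a fatty acid elongase, at 17060, 4250 and 6734, and Slco1a1, an organic anion transporter, at 17860, 4351 and 8054. LP+/+ 1 was the highest liver for Hsd3b5, Cyp7b1 and Elovl3, though not for Slco1a1. None of the 7 male-biased or 9 growth hormone genes listed passed the test. Their part in the spread of the Cyp2a and Cyp2b genes was not tested.

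Genes that serve or regulate the P450s moved with the members. Por, the electron donor, stood at 1667, 4120 and 3545 normalized counts in LP+/+, 1842 and 1491 in the LPfl/+ livers, and 4784, 3676 and 3522 in LP245/+. Every series 1 liver was above every series 2 liver, and in LP245/+ against LPfl/+ the log2 fold change was 1.26 (unadjusted p = 0.0034, edgeR adjusted p = 0.362). Nr1i3, the gene of CAR, stood at 283, 733 and 914 in LP+/+, 346 and 418 in the LPfl/+ livers, and 628, 566 and 632 in LP245/+, in the same split of series. Ahr stood at 1229, 2217 and 1943 in LP+/+, 1347 and 819 in the LPfl/+ livers, and 1912, 2227 and 1733 in LP245/+. The CAR and PXR target Abcc3, an export pump, stood at 2246, 7542 and 7927, at 3072 and 2719, and at 4764, 7165 and 3973. Nr1i2, the gene of PXR, ran from 1500 to 2712, and Cebpa and Arnt overlapped between LP+/+ and both other genotypes.

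Lists of related genes held 107 genes that are no members, 92 of them tested, among them 7 P450 partners, 13 regulators, 4 AHR targets, 5 CAR and PXR targets, 5 other female-biased, 9 periportal and the cell type genes. Of these, 0 passed an adjusted p of 0.05 in any comparison, with the smallest edgeR values at 0.831 (Igf1), 0.697 (Por) and 0.362 (Por) in LP245/+ against LP+/+, LPfl/+ against LP+/+ and LP245/+ against LPfl/+. Summed cholangiocyte markers (5 of 5 detected) ran from 655 to 1136 normalized counts per liver, macrophage markers from 4285 to 6941, lymphocyte markers from 31.3 to 66.2, stellate cell markers from 11154 to 14104 and endothelial markers from 8075 to 12638. None of these 5 sums had LP+/+ 2 and 3 highest and LP+/+ 1 lowest, as Cyp2a22 did. The hepatocyte sum came nearer, with LP+/+ 3 (4047600) and LP+/+ 2 (3618300) highest and LP+/+ 1 (2824000) above LPfl/+ 2 alone. Most of this sum was Alb, at 2150000, 2963000 and 3321000 in LP+/+ 1 to 3. Among the LP+/+ livers, Ttr and Hnf4a were also lowest in replicate 1, Apoa1, Cps1 and Tat were highest there, and Serpina1a lay between. Spp1 likewise made up most of the cholangiocyte sum. The part of the cell type markers in the members' differences was not tested.

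**Figure D5:**
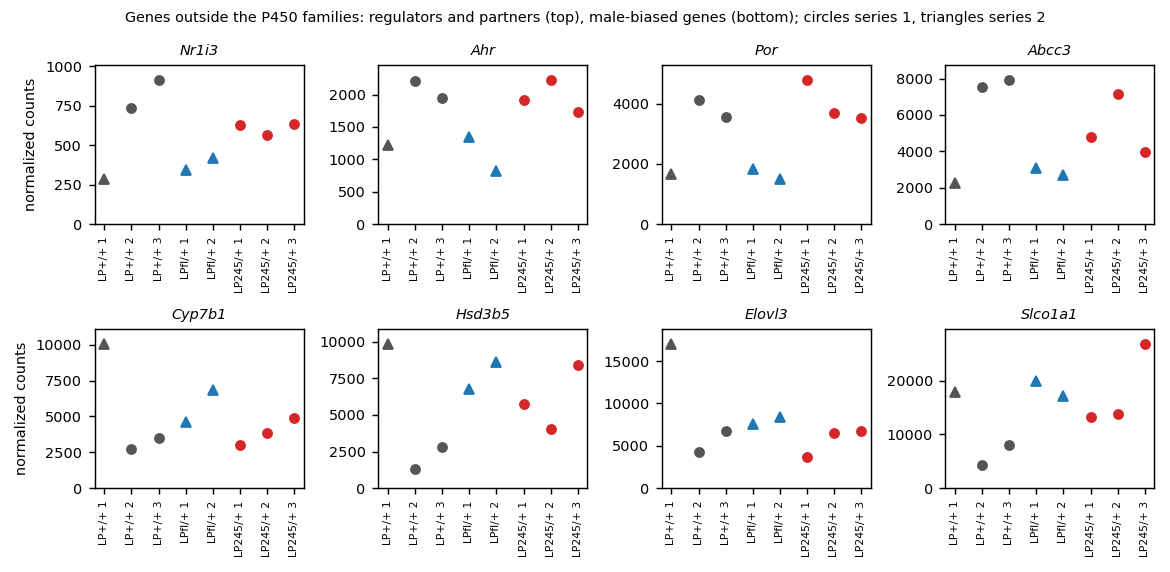
Normalized counts (linear axes from 0) of 8 genes outside the families in each liver, coloured by genotype (circles series 1, triangles series 2). Nr1i3, Ahr, Por and Abcc3 are higher in all series 1 than in all series 2 livers, and Cyp7b1, Hsd3b5 and Elovl3 are highest in LP+/+ 1.

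Reads of near-identical genes limit what single members show. Of the 58 members, 16 shared no 76-base stretch of their transcripts with another gene, and 18 shared more than 10%. The shares were highest for Cyp2c40 (45.4%), Cyp2c69 (42.3%), Cyp2c67 (35.4%) and Cyp2c68 (28.1%), and 21.9% for Cyp2a5, 21.8% for Cyp2d10 and 16.0% for Cyp2b13. Exons of 11 members overlap another gene, the longest share being 13.5% of Cyp2f2, on the opposite strand. Cyp2c38 (1.72%) and Cyp3a11 (1.58%) shared little.

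Members not yet described had fitted changes of unlike size. Cyp3a59 stood at 200 to 537 normalized counts in LP+/+, 191 to 294 in LPfl/+ and 268 to 568 in LP245/+, and its log2 fold change in LPfl/+ against LP+/+ was -0.78 ± 0.43 (edgeR adjusted p = 0.757). Cyp2c38 (-1.07 ± 0.53), Cyp2c39 (-0.68 ± 0.44) and the low-count Cyp2g1 (0.73 ± 0.63) were also not called in that comparison. Of these only Cyp2c38 reached the fold-change cutoff, with an edgeR adjusted p of 0.752. Cyp2c70, which makes muricholic acids from chenodeoxycholic acid, ran from 8348 to 12770 normalized counts. Cyp2r1, a vitamin D hydroxylase, ran from 254 to 590, and Cyp2u1, a fatty acid hydroxylase, from 2426 to 3895. For Cyp2d10, Cyp2d22, Cyp2j5 and Cyp3a13 the log2 fold changes were within 0.26 of 0 in all comparisons.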

How the data were processed

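Total RNA of 8 flash-frozen livers was sequenced as 76-base read pairs from stranded libraries. The authors aligned the reads with STAR to GRCm38 and deposited raw counts per gene, with no normalization. The GENCODE release and the strand counted are not given in the sources used here. Symbols, exon lengths and positions came from GENCODE M21, which named 49326 of 49585 genes.

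Genotypes came from the labels. The 3 pairwise comparisons were fitted on all 8 livers with edgeR 4.0.16 (R 4.3.3; quasi-likelihood test, TMM, filterByExpr by genotype, 16496 genes), with Benjamini-Hochberg adjustment over all genes and a call at an adjusted p of 0.05 or less and an absolute log2 fold change of 1 or more. SEs were the log2 fold change over the root of F. Normalized counts used DESeq2 1.42.0 size factors. A gene with a mean under 3 counts was taken as not detected. Total counts of 26304526 to 31370714 set the precision, and intervals from counts cover counting error only. p-values measure the spread between these livers.

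Members were named by a rule: the 10 highest per length, those past the adjusted test, the 5 highest and 5 lowest fold changes without overlap in each comparison, Cyp2a22, the sex-biased, pericentral and periportal lists, and the 5 most variable. Non-members were to be given values where genotypes did not overlap. This was done for only part of them. Nqo1, Cux2, Rxra, Hnf4a, Cyb5b, Ppara and Nr3c1 are among those left without values. Other genes with values (Cyp1a1, Cyp1b1, Cyp2b10, Cyp2c38, Cyp2c70, Cyp2r1, Cyp2u1, Hsd3b5 and Cyp7b1 among them) were chosen after their values were seen. The members and lists were chosen with earlier results of these data known. Alternatives were DESeq2, its size factors, other filters, no fold cutoff, only the genotypes compared, a replicate block, library series as a covariate and leaving out each liver. Fits within 1 library series, TMM scaling of the spread and the list of sex-linked genes were added after seeing the data. The fits were tested on simulated counts with the same dispersion for every gene and no difference between library series. The members here varied more and split by series, so that test does not show how the fits behave on them.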

Additional observations from a re-analysis of the deposited data

How the results depend on the processing

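Of 291 alternative values for 19 member fold changes, 266 kept direction and side of the threshold, 11 gained a call and 14 reversed, all 14 with the library series as a covariate or within series 2. In LP245/+ against LP+/+, LPfl/+ against LP+/+ and LP245/+ against LPfl/+, genes called numbered 1, 0 and 0. DESeq2 called 10, 8 and 56, no filter on low counts gave 20, 14 and 122, and the series covariate gave 3, 3 and 10. Only the genotypes compared gave 51 in the last, and series 1 alone 7 in the first. Same-numbered livers correlated between -0.0822 and 0.0339 in their deviations, so the numbers were not taken as pairs. The replicate block gave 0 genes and 0 members in each comparison.

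Members called numbered 0 in each comparison. The series covariate called 1 (Cyp2a22), 0 and 1 (Cyp2a22), series 1 alone 1 (Cyp2a22), DESeq2 1 in the second (Cyp2a5), no filter 2 in the second (Cyp2a5, Cyp2b13) and 1 in the last (Cyp2c37), and only the genotypes compared 1 in the last (Cyp2c37). Leaving out each liver gave 0 to 5, 0 to 59 and 0 to 47 genes and 0 to 1, 0 to 5 and 0 to 1 members, with 59, 47 and every member call in fits without LP+/+ 1. In the first comparison, 5 genes were called without LP245/+ 3, 4 without LP245/+ 1, 3 without LP+/+ 1 and 0 without LP+/+ 3 or LP245/+ 2. In the second, 2 were called without LPfl/+ 2. In the last, 3 were called without LP245/+ 3 and 2 without LPfl/+ 2 or LP245/+ 1.

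For LPfl/+ against LP+/+, log2 fold changes with the series covariate and within series 2 were 2.195 and 2.19 for Cyp2a22, 3.166 and 3.162 for Cyp2b9, 0.2899 and 0.2852 for Cyp2c37, and 0.02144 and 0.01687 for Cyp1a1. For LP245/+ against LPfl/+ the covariate gave -8.037 for Cyp2a4, -0.2274 for Cyp2a5, -4.667 for Cyp2a22 (edgeR adjusted p = 0.0353), -5.123 for Cyp2b9, -0.1741 for Cyp2c37 and -0.1452 for Cyp2c50. In both fits LP+/+ 1, with 0 reads of Cyp2a4, is the one series 2 control, and the cause was not tested. Detected members numbered 40 with a mean of at least 10 counts and 43 by edgeR's filter, and the median CV was 27.7% with TMM scaling.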
